A study of Mus musculus with 27 samples.

Results

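Igf1r and 7 other genes of the signalling path that runs from insulin-family receptors through phosphoinositide 3-kinase (PI3K) to the kinases Akt and Sgk were followed in mouse T cells. The genes were the receptors Igf1r and Insr, the adaptor Irs2, the PI3K subunits Pik3r1 and Pik3cd, and the kinases Akt1, Akt2 and Sgk1. They were taken by gene symbol and make up 8 of the 26802 genes counted. The list was chosen from earlier results of these same data, with stimulated CD8+ cells that lack Raptor set against those that lack Rictor. For these 8 genes, values of those cells are therefore described without a test, and tests are given only for the other libraries. Further pathway genes, in lists also chosen with earlier results known, were tested in all groups, those cells included. Their p-values make no allowance for that choice.

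RNA was sequenced from CD4+ and CD8+ T cells of C57BL/6 mice, purified with magnets by negative selection from pooled lymph node and spleen. Raptor KO mice carry floxed Rptor, Rictor KO mice carry floxed Rictor, and both carry a CD4-driven Cre recombinase, which acts in thymocytes before the CD4+ and CD8+ subsets part. The label of the wild-type (WT) mice names no Cre. Cells were cultured for 48 h with CD3 and CD28 antibodies fixed to the plate at 10 µg/ml (stimulated) or in IL-7 at 5 ng/ml (resting), and live cells were then sorted. No IL-7 is given for the stimulated cultures. Stimulation below therefore joins the antibodies with the change in IL-7, and their parts cannot be told apart. The 9 groups of 3 libraries were Raptor KO and WT cells of each subset and culture, and Rictor KO stimulated CD8+ cells.

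Igf1r and Insr are receptor tyrosine kinases for insulin-like growth factors and insulin. Through Irs adaptors they recruit PI3K, whose lipid product draws Akt to the membrane; in T cells CD28 and ICOS reach PI3K as well. The complex mTORC2, which needs Rictor, phosphorylates Akt and Sgk1, whereas mTORC1, which needs Raptor, acts further down and feeds back on Irs adaptors. Akt holds FOXO transcription factors out of the nucleus, and FOXO factors sustain genes of resting T cells such as Il7r and Klf2.

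Libraries held 8640699 to 16817347 counts, of which the ribosomal precursor Rn45s took 81.1% to 88.4%, and 1522199 to 2515583 counts remained per library. Levels below are CPM, counts scaled to a common total of the remainder after TMM scaling, and all 8 genes passed the filter on low counts, with 10493 genes tested. Rptor averaged 19.8 ± 2.68 CPM in Raptor KO and 23.5 ± 5.27 CPM in WT stimulated CD8+ cells, and Rictor averaged 39.1 ± 1.61 CPM in Rictor KO and 45.0 ± 7.19 CPM in WT stimulated CD8+ cells (SD, n = 3 each). Neither difference passed the test (edgeR adjusted p = 0.51 and 0.961), and counts over the whole gene do not show whether the floxed exons were lost. Summed CPM of Cd4 and Zbtb7b was 1.22 to 16.6 in CD8+ libraries, against 195 to 418 in CD4+ libraries, and that of Cd8a and Cd8b1 was 136 to 726 in CD8+ libraries, against 2.23 to 8.22 in CD4+ libraries. In bulk RNA, fewer cells that express a gene and less of its RNA per cell cannot be told apart.

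On GRCm38, Igf1r (ENSMUSG00000005533) spans chr7:67952827-68233668 on the plus strand and Insr (ENSMUSG00000005534) spans chr8:3122061-3279617 on the minus strand. Irs2 (ENSMUSG00000038894) lies at chr8:10984681-11008458, minus strand. Pik3r1 (ENSMUSG00000041417) lies at chr13:101680563-101768217 and Pik3cd (ENSMUSG00000039936) at chr4:149649168-149702571, both on the minus strand. Akt1 (ENSMUSG00000001729) lies at chr12:112653821-112674884, minus strand, and Akt2 (ENSMUSG00000004056) at chr7:27591552-27640826, plus strand. Sgk1 (ENSMUSG00000019970) lies at chr10:21882184-21999903, plus strand. All 8 are protein-coding, and the 27 libraries together held from 1178 counts (Sgk1) to 11777 counts (Pik3cd). Exons of Irs2 share 162 bases with an antisense transcript, 9530052E02Rik, so reads of the pair cannot be told apart where the counting ignored strand.

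Promoters are shown for Igf1r, whose level differed most between the stimulated CD8+ genotypes, and for Irs2, Pik3r1 and Akt1, which moved in different ways with stimulation. Each run of 300 bases covers 250 before to 50 after a RefSeq start on GRCm38.p6, on the strand of the gene and 5′ to 3′. RefSeq promoters were at hand for 7 of the 8 genes. Capitals mark matches, on either strand, to the FOXO motif GTAAACA, the insulin response sequence CAAAACA, the GC box GGGCGG or the E-box CACGTG.
Igf1r, chr7:67952007-67952306: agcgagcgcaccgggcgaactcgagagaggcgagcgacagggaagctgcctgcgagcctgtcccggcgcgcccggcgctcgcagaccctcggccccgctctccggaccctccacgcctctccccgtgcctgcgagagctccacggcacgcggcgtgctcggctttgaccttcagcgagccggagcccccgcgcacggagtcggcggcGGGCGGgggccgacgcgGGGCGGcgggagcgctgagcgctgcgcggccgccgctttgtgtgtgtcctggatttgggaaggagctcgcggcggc
Irs2, chr8:11008880-11009179: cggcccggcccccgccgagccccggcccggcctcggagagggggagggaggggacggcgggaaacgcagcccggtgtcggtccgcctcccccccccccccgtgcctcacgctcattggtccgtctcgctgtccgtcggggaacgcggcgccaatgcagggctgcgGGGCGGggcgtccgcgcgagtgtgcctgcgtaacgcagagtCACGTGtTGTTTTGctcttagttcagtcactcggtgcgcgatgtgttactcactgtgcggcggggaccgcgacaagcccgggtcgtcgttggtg
Pik3r1, chr13:101768168-101768467: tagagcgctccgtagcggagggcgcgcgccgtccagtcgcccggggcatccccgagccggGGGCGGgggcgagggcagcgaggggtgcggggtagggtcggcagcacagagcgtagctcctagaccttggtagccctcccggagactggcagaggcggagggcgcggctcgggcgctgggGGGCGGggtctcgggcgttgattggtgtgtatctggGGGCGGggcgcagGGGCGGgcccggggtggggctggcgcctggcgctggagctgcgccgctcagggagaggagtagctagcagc
Akt1, chr12:112674835-112675134: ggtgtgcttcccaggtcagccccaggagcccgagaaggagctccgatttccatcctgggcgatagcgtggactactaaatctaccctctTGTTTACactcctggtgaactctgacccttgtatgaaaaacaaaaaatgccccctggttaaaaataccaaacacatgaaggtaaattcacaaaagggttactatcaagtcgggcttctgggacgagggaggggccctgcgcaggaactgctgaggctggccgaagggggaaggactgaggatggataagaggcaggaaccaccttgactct
The Igf1r window held 2 GC boxes and none of the other motifs. The Irs2 window held 1 GC box, 1 E-box and 1 insulin response sequence, the Pik3r1 window 4 GC boxes and the Akt1 window 1 FOXO motif. RefSeq gave 2 windows each for Pik3r1 and Akt1, and those shown are the first listed; the other Pik3r1 window held none of the motifs, and the other Akt1 window held 5 GC boxes and no FOXO motif. Of 32851 RefSeq promoters of this length, 35.7% held a GC box, 7.15% an E-box, 6.28% the insulin response sequence and 3.65% the FOXO motif. A match is a description of letters, not of a bound factor.

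Igf1r was lowest in stimulated Raptor KO CD8+ cells and, among the stimulated groups, highest in Rictor KO CD8+ cells. It stood at 7.53, 14.6 and 11.0 CPM in the Raptor KO libraries, at 50.1, 57.3 and 60.2 CPM in the Rictor KO libraries and at 24.0, 26.8 and 33.9 CPM in the WT libraries of stimulated CD8+ cells. No library of one genotype reached into the range of another, with Raptor KO lowest and Rictor KO highest. The Raptor KO values rest on 9, 28 and 28 counts. On the log2 scale the difference was -2.28 ± 0.21 for Raptor KO against Rictor KO (a 4.86-fold lower level), -1.32 ± 0.22 for Raptor KO against WT (2.50-fold lower) and 0.96 ± 0.17 for Rictor KO against WT (1.95-fold higher; SE, n = 3 each, no test). Of all tested genes, 8.30% were higher and 7.00% lower in Raptor KO than in Rictor KO, 6.30% higher and 5.42% lower in Raptor KO than in WT, and 0.105% higher and 0.0572% lower in Rictor KO than in WT. Because these libraries were behind the choice of the genes, nothing is read from the comparison with those shares. With Rn45s kept in the library totals and no TMM scaling, the Igf1r differences were -2.71, -1.84 and 0.87 in the same order. Below, Rn45s in the totals always means both changes.

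**Figure D1:**
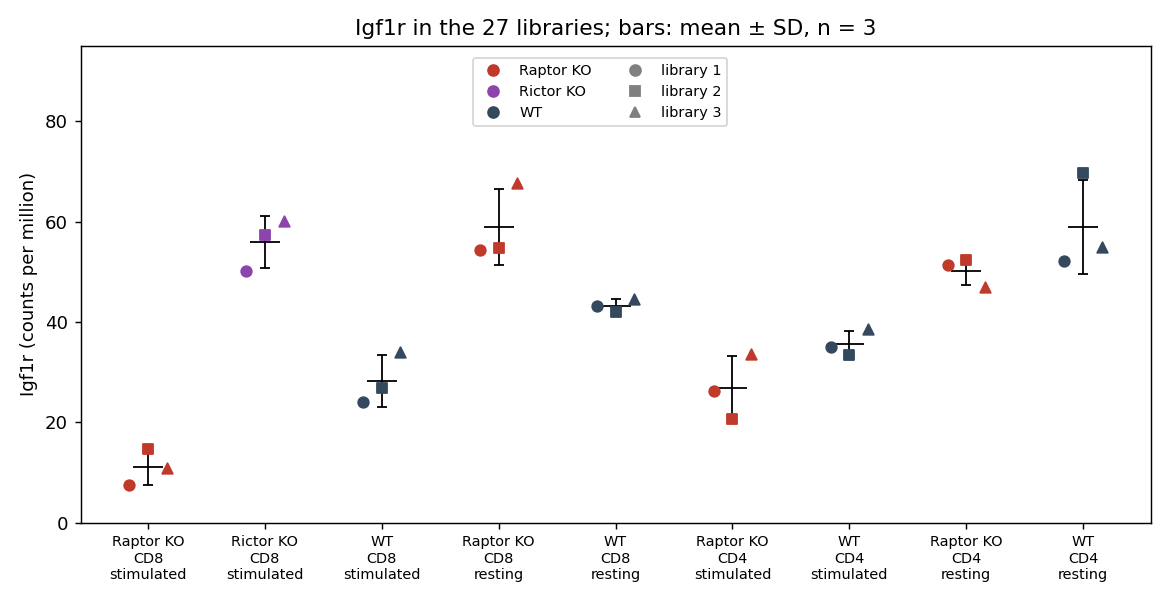
Igf1r level in CPM (vertical axis) in each library of the 9 groups (horizontal axis), with the group mean and SD as bars. Stimulated Raptor KO CD8+ libraries sit between 7.53 and 14.6 CPM, below every other library, and stimulated Rictor KO CD8+ libraries between 50.1 and 60.2 CPM.

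All 3 Rictor KO libraries carry the library code StP219, which in the other groups marks library 3, so code and genotype cannot be fully told apart. Within StP219, Igf1r stood at 11.0 CPM in the Raptor KO library, at 50.1 to 60.2 CPM in the Rictor KO libraries and at 33.9 CPM in the WT library, and the log2 difference was -2.34 for Raptor KO against Rictor KO and 0.71 for Rictor KO against WT. The share of non-Rn45s counts on protein-coding genes was 31.8%, 47.2% and 47.8% in the Raptor KO libraries, 59.2%, 60.4% and 44.8% in the Rictor KO libraries, and 52.9%, 49.9% and 62.5% in the WT libraries. Its part in the result was not tested. Of the 9 libraries, the Raptor KO library with 31.8% had the lowest Igf1r level and the Rictor KO library with 44.8% the highest.

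In the remaining groups Igf1r stood at 54.3, 54.7 and 67.7 CPM in resting Raptor KO and 43.3, 41.9 and 44.5 CPM in resting WT CD8+ cells. In CD4+ cells it stood at 26.2, 20.7 and 33.5 CPM in stimulated Raptor KO, 35.0, 33.4 and 38.5 CPM in stimulated WT, 51.4, 52.4 and 46.9 CPM in resting Raptor KO and 52.2, 69.7 and 55.0 CPM in resting WT cells. By mean level the order from the top was resting WT CD4+ (58.9 ± 9.43 CPM), resting Raptor KO CD8+ (58.9 ± 7.64), stimulated Rictor KO CD8+ (55.9 ± 5.19), resting Raptor KO CD4+ (50.2 ± 2.92), resting WT CD8+ (43.2 ± 1.32), stimulated WT CD4+ (35.7 ± 2.61), stimulated WT CD8+ (28.2 ± 5.11), stimulated Raptor KO CD4+ (26.8 ± 6.45) and stimulated Raptor KO CD8+ (11.0 ± 3.55). Neighbours in that order overlapped in their libraries, apart from the steps on either side of resting WT CD8+ cells and the last step down to stimulated Raptor KO CD8+ cells. The stimulated Rictor KO CD8+ libraries overlapped the resting WT CD4+, resting Raptor KO CD8+ and resting Raptor KO CD4+ libraries and lay above all other stimulated libraries.

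Stimulation lowered most of the 8 genes in the groups that could be tested and raised Akt1. In Raptor KO CD4+ cells 1 gene rose and 6 fell, where 27.9% of all tested genes rose and 24.1% fell. In WT CD8+ cells 1 rose and 5 fell, against 32.0% and 30.8% of all genes, and in WT CD4+ cells 1 rose and 6 fell, against 32.4% and 32.5% (edgeR quasi-likelihood test, Benjamini-Hochberg adjusted p under 0.05). The median log2 fold change of the 8 genes was -0.82, -0.89 and -1.28 in these 3 comparisons, against 0.04, 0 and -0.03 over all tested genes. In Raptor KO CD8+ cells, where no test is given for them, 2 of the 8 log2 fold changes were positive and 6 negative with a median of -0.91, and 29.5% of all genes rose and 26.0% fell. Summed CPM of erythroid and stromal markers, 4 of 5 listed, was 5.23 to 24.8 in stimulated and 27.6 to 111 in resting libraries. Those of B cell markers (4 of 4) were 0.788 to 12.4 in stimulated and 4.46 to 17.2 in resting libraries, those of myeloid markers (5 of 5) 0 to 3.35 and 2.44 to 10.1, and those of NK cell markers (3 of 3) 0 to 3.37 and 0 to 2.46. Of the NK cell markers, Ncr1 was at 0 in every stimulated library and in every resting CD4+ library, whereas Klre1 had counts in every stimulated group. The share of non-Rn45s counts on protein-coding genes was 31.8% to 63.6% in stimulated and 18.7% to 45.2% in resting libraries. The part of these markers and of that share in the stimulation results was not tested.

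**Figure D2:**
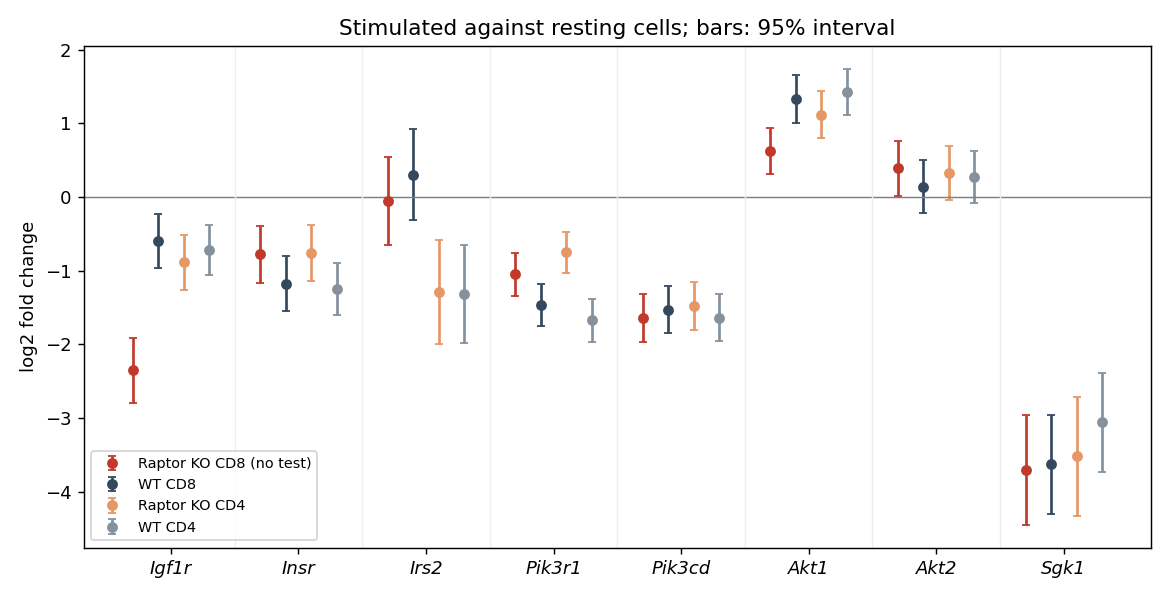
Log2 fold change of stimulated over resting cells (vertical axis) for each of the 8 genes (horizontal axis) in Raptor KO and WT cells of each subset, with 95% intervals. Sgk1 shows the largest drop in all 4 comparisons, Akt1 lies above 0 in all 4, and Igf1r in Raptor KO CD8+ cells (-2.35, no test) lies below its other 3 values. With Rn45s kept in the totals and no TMM scaling, the Igf1r value in WT CD8+ cells turns positive.

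The receptors fell with stimulation. Igf1r fell by 0.89 ± 0.18 on the log2 scale in Raptor KO CD4+ cells (edgeR adjusted p = 8.57e-05), by 0.71 ± 0.17 in WT CD4+ cells (adjusted p = 0.000318) and by 0.60 ± 0.18 in WT CD8+ cells (adjusted p = 0.00383). The last value turned to 0.19 (adjusted p = 0.707) with Rn45s kept in the library totals and no TMM scaling. Those changes together moved the median of all genes by 0.77. In Raptor KO CD8+ cells the log2 difference was -2.35 ± 0.22, a 5.11-fold lower level in stimulated cells, with no test. Insr had 25.1, 23.5 and 25.5 CPM in stimulated Raptor KO CD8+ cells, 18.4, 24.4 and 20.2 CPM in stimulated Rictor KO CD8+ cells and 19.3, 17.1 and 22.3 CPM in stimulated WT CD8+ cells. Resting CD8+ cells had 37.8, 50.0 and 39.2 CPM of Insr in Raptor KO and 46.1, 47.6 and 41.5 CPM in WT. Stimulated and resting CD8+ libraries did not overlap in either genotype. Insr fell by 0.76 ± 0.19 on the log2 scale in Raptor KO CD4+ cells (adjusted p = 0.000671), by 1.17 ± 0.19 in WT CD8+ cells (adjusted p = 8.41e-07) and by 1.25 ± 0.18 in WT CD4+ cells (adjusted p = 6.56e-08).

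The adaptor Irs2, which couples both receptors to PI3K, fell in CD4+ cells of both genotypes. It had 19.9, 20.7 and 10.4 CPM in stimulated and 41.4, 36.4 and 45.3 CPM in resting Raptor KO CD4+ cells, and 19.5, 23.2 and 9.63 CPM in stimulated and 41.7, 40.7 and 41.6 CPM in resting WT CD4+ cells. Library 3, the StP219 library, was the lowest of both stimulated groups. The log2 fold change was -1.29 ± 0.34 in Raptor KO (adjusted p = 0.00253) and -1.32 ± 0.32 in WT CD4+ cells (adjusted p = 0.001). In WT CD8+ cells Irs2 had 36.7, 55.7 and 38.2 CPM stimulated and 29.8, 46.0 and 29.9 CPM resting, groups that overlapped (log2 0.30 ± 0.30, adjusted p = 0.39). With Rn45s kept in the totals that value became 1.05 (adjusted p = 0.0183). Stimulated CD8+ cells had more Irs2 than stimulated CD4+ cells in WT by 1.37 ± 0.31 on the log2 scale (2.59-fold, adjusted p = 0.00688).

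Both PI3K subunits fell. Pik3r1 encodes the main regulatory subunit and Pik3cd the catalytic subunit enriched in leukocytes. Pik3r1 had 54.4, 43.4 and 47.2 CPM in stimulated and 128, 126 and 146 CPM in resting WT CD8+ cells, a fall of 1.46 ± 0.14 on the log2 scale (2.76-fold, adjusted p = 9.55e-12). It fell by 0.75 ± 0.14 in Raptor KO CD4+ cells (adjusted p = 1.91e-05) and by 1.67 ± 0.14 in WT CD4+ cells (adjusted p = 2.46e-13). Pik3cd had 148, 144 and 120.2 CPM in stimulated and 350, 356 and 483 CPM in resting WT CD8+ cells, a fall of 1.53 ± 0.16 (2.89-fold, adjusted p = 7.56e-11). It fell by 1.48 ± 0.16 in Raptor KO CD4+ cells (adjusted p = 4.07e-10) and by 1.64 ± 0.16 in WT CD4+ cells (adjusted p = 1.28e-11). With Rn45s kept in the totals the calls were lost in Raptor KO CD4+ cells for Insr (-0.88, adjusted p = 0.078) and Pik3r1 (-0.91, adjusted p = 0.0524), whose folds were larger than before, in WT CD8+ cells for Insr (-0.38, adjusted p = 0.428), Pik3r1 (-0.69, adjusted p = 0.115) and Pik3cd (-0.79, adjusted p = 0.0723), and in WT CD4+ cells for Igf1r (-0.43, adjusted p = 0.369).

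The 3 kinases behaved differently from one another. Akt1, the most widely expressed Akt, had 72.1, 66.9 and 71.6 CPM in stimulated and 29.8, 26.3 and 27.4 CPM in resting WT CD8+ cells, a rise of 1.33 ± 0.16 on the log2 scale (2.52-fold, adjusted p = 1.24e-09). It rose by 1.12 ± 0.16 in Raptor KO CD4+ cells (adjusted p = 1.17e-07) and by 1.42 ± 0.16 in WT CD4+ cells (adjusted p = 1.3e-10). Akt2, the isoform best known for insulin action, passed no test in any of the 9 tested comparisons. Its stimulation log2 fold changes were 0.32 ± 0.18 in Raptor KO CD4+ cells (adjusted p = 0.127), 0.14 ± 0.18 in WT CD8+ cells (adjusted p = 0.509) and 0.27 ± 0.17 in WT CD4+ cells (adjusted p = 0.178). The first was called without stimulated Raptor KO CD4+ library 2, at 0.52 (adjusted p = 0.0167), and the WT CD8+ value was called with Rn45s in the totals, at 0.92 (adjusted p = 0.0356).

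Sgk1, a kinase related to Akt that mTORC2 activates, fell the most. It had 3.94, 8.56 and 3.68 CPM in stimulated and 63.8, 68.2 and 56.1 CPM in resting WT CD8+ cells, a fall of 3.63 ± 0.33 on the log2 scale (12.4-fold, adjusted p = 7.47e-13). It fell by 3.52 ± 0.40 in Raptor KO CD4+ cells (11.5-fold, adjusted p = 5.77e-11) and by 3.06 ± 0.33 in WT CD4+ cells (8.34-fold, adjusted p = 6.06e-11). Stimulated libraries held 5 to 17 counts of Sgk1 each, so differences between genotypes after stimulation were hard to detect at this depth.

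In stimulated CD4+ cells, 1 of the 8 genes, Pik3r1, was higher in Raptor KO than in WT, where 8.82% of all genes were higher and 8.56% lower. Pik3r1 stood at 87.7, 80.0 and 66.1 CPM in Raptor KO and 46.1, 44.1 and 41.8 CPM in WT stimulated CD4+ cells, with every Raptor KO library above every WT library and also within each library code. The log2 difference was 0.83 ± 0.15 (1.77-fold, edgeR adjusted p = 7.83e-05). The fall of Pik3r1 on stimulation was smaller in Raptor KO than in WT CD4+ cells by 0.92 ± 0.20 on the log2 scale (interaction, adjusted p = 0.00324), the single call among the 8 in that comparison, in which 3.57% of all genes had a positive and 2.25% a negative difference. With Rn45s in the totals both calls were lost (0.32, adjusted p = 0.617, and 0.49, adjusted p = 0.789), with the median of all genes moved by -0.50 and -0.40. Igf1r had a log2 difference of -0.40 ± 0.18 (adjusted p = 0.131), which passed the test without stimulated Raptor KO CD4+ library 3 (-0.61, adjusted p = 0.0429), and its interaction in CD4+ cells was -0.17 ± 0.25 (adjusted p = 0.754). The remaining genes of the list had differences of -0.35 (Sgk1) to 0.14 (Insr), with adjusted p of 0.39 to 0.998.

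At rest, few genes of any kind differed between Raptor KO and WT. In resting CD4+ cells 0.0953% of all genes were higher and 0.0477% lower in Raptor KO, and none of the 8 was called by edgeR, with log2 differences of -0.35 ± 0.17 (Insr) to 0.12 ± 0.17 (Akt1). At an unadjusted p under 0.05 the count was 0 as well, and DESeq2 called 0. In resting CD8+ cells 0.505% were higher and 0.619% lower, and Akt1 was the 1 gene of the 8 called. It stood at 48.8, 45.3 and 36.5 CPM in Raptor KO and 29.8, 26.3 and 27.4 CPM in WT, a log2 difference of 0.65 ± 0.17 with no overlap (adjusted p = 0.0431). The call was lost with DESeq2 (log2 0.65, adjusted p = 0.105), with no filter on low counts (0.63, adjusted p = 0.199), in a fit of the compared groups alone (0.67, adjusted p = 0.124) and with Rn45s in the totals (0.63, adjusted p = 1), so the difference itself moved little. It was also lost without any of the 6 libraries except Raptor KO library 3, with log2 differences of 0.56 to 0.70 (adjusted p = 0.0969 to 0.199). Igf1r was higher in every resting Raptor KO than in every resting WT CD8+ library, yet the log2 difference of 0.43 ± 0.18 did not pass (adjusted p = 0.355).

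Between the subsets in WT, Irs2 after stimulation was the 1 call among the 8. Of all genes, 3.08% were higher and 2.11% lower in stimulated CD8+ than in stimulated CD4+ cells, and at rest 1.59% were higher and 1.73% lower in CD8+ cells. None of the 8 passed at rest with edgeR, while 2 had an unadjusted p under 0.05 and DESeq2 called 0. Igf1r (-0.44 ± 0.17, adjusted p = 0.204) and Insr (-0.43 ± 0.18, adjusted p = 0.222) had the largest resting differences below 0, with every CD8+ library under every CD4+ library.

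Beside Igf1r, the description of stimulated CD8+ cells across genotypes singled out Pik3cd and Irs2. Pik3cd stood at 125, 129 and 147 CPM in Raptor KO, 186, 210 and 234 CPM in Rictor KO and 148, 144 and 120.2 CPM in WT stimulated CD8+ cells. Rictor KO libraries lay above all others, and the log2 difference was -0.65 ± 0.16 for Raptor KO against Rictor KO, -0.04 ± 0.16 for Raptor KO against WT and 0.61 ± 0.16 for Rictor KO against WT. Within StP219 the first was -0.51 and the last 0.81. Irs2 stood at 57.8, 64.3 and 26.3 CPM in Raptor KO, 27.3, 30.0 and 22.1 CPM in Rictor KO and 36.7, 55.7 and 38.2 CPM in WT. Raptor KO and Rictor KO overlapped through Raptor KO library 3, and their log2 difference of 0.84 ± 0.29 was -0.02 within StP219. Rictor KO against WT was -0.68 ± 0.28 for Irs2 with no overlap. That difference was -0.52 within StP219 and -0.40 with library code as a factor.

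**Figure D3:**
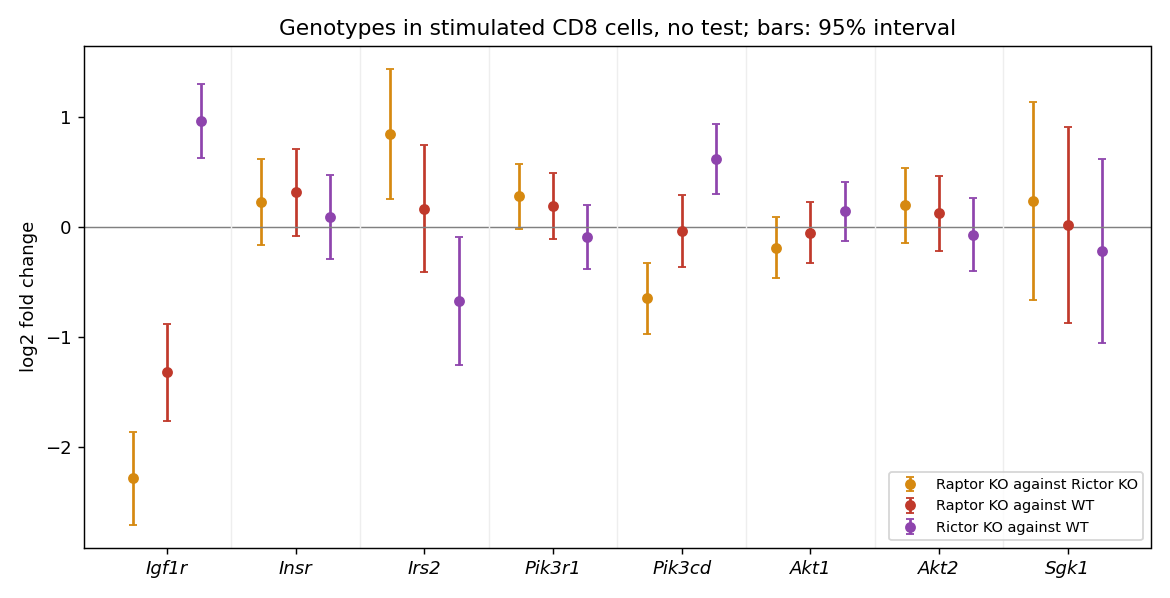
Log2 fold change (vertical axis) of the 8 genes (horizontal axis) between genotypes in stimulated CD8+ cells, with 95% intervals and no test. Igf1r shows the widest spread, from -2.28 for Raptor KO against Rictor KO to 0.96 for Rictor KO against WT. The intervals describe spread only, because these libraries were behind the choice of the genes.

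The other 5 genes differed less. Insr, whose values are given above, was higher in every Raptor KO than in every WT library, with a log2 difference of 0.31 ± 0.20. Pik3r1 stood at 56.1, 65.9 and 44.7 CPM in Raptor KO, 46.0, 41.9 and 49.1 CPM in Rictor KO and 54.4, 43.4 and 47.2 CPM in WT stimulated CD8+ cells, with a log2 difference of 0.28 ± 0.15 for Raptor KO against Rictor KO that became -0.02 within StP219. Akt1 stood at 69.5, 70.6 and 63.9 CPM in Raptor KO, 74.5, 79.4 and 78.5 CPM in Rictor KO and 72.1, 66.9 and 71.6 CPM in WT, so that Rictor KO was the highest by a log2 difference of 0.14 ± 0.13 over WT. Akt2 had 36.0, 55.9 and 51.8 CPM in Raptor KO, 43.8, 44.9 and 38.5 CPM in Rictor KO and 40.6, 41.8 and 51.2 CPM in WT. Sgk1 had 10.9, 2.61 and 3.92 CPM in Raptor KO, 1.90, 4.25 and 7.70 CPM in Rictor KO and 3.94, 8.56 and 3.68 CPM in WT, on 5 to 16 counts per library. The 3 genotypes overlapped for Akt2 and Sgk1. For Raptor KO against Rictor KO the 95% interval of the log2 difference was -0.16 to 0.61 for Insr, -0.14 to 0.53 for Akt2 and -0.66 to 1.13 for Sgk1. Small differences of Raptor KO cells depended on the scaling. With Rn45s kept in the totals, which moved the median of all genes by -0.45, the log2 difference of Raptor KO against Rictor KO turned to -0.25 for Insr, -0.17 for Pik3r1, -0.26 for Akt2 and -0.18 for Sgk1, and that of Irs2 became 0.34. The difference became -1.07 for Pik3cd and -0.66 for Akt1. Against WT, where the median moved by -0.52, it turned to -0.22 for Insr, -0.35 for Irs2, -0.34 for Pik3r1, -0.39 for Akt2 and -0.52 for Sgk1, and became -0.53 for Pik3cd and -0.59 for Akt1. No value of Rictor KO against WT changed sign.

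**Figure D4:**
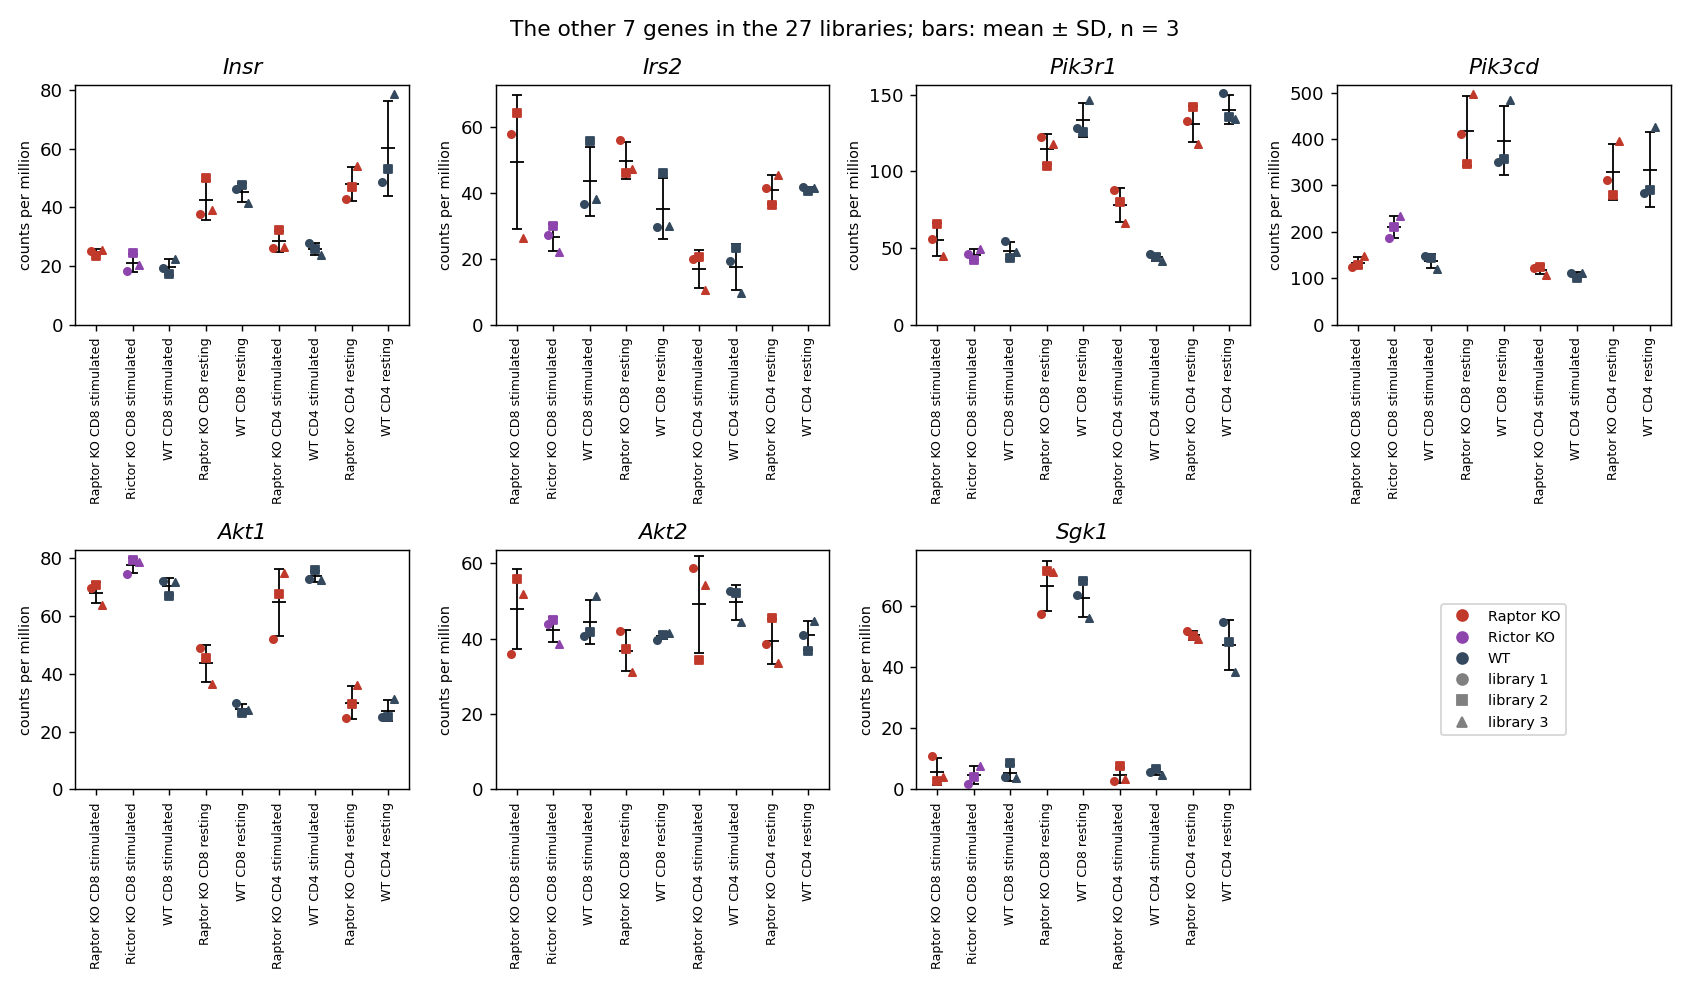
Levels in CPM (vertical axes) of the other 7 genes in each library of the 9 groups (horizontal axes), with group means and SD. Sgk1 lies between 1.90 and 10.9 CPM in stimulated libraries and between 38.5 and 71.6 CPM in resting ones, and Pik3r1 in stimulated CD4+ cells lies between 66.1 and 87.7 CPM in Raptor KO and between 41.8 and 46.1 CPM in WT.

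On stimulation of Raptor KO CD8+ cells the log2 fold changes were -3.70 ± 0.37 for Sgk1, -2.35 ± 0.22 for Igf1r, -1.64 ± 0.16 for Pik3cd, -1.05 ± 0.14 for Pik3r1, -0.78 ± 0.19 for Insr, -0.05 ± 0.29 for Irs2, 0.39 ± 0.18 for Akt2 and 0.63 ± 0.15 for Akt1. The stimulation effect in Raptor KO minus that in WT CD8+ cells was -1.75 ± 0.28 for Igf1r, -0.71 ± 0.22 for Akt1 and 0.41 ± 0.20 for Pik3r1, and lay between -0.36 (Irs2) and 0.40 (Insr) for the others, with no test. With Rn45s in the totals, which moved the median of all genes by -0.47, the differences between stimulation effects turned to -0.063 for Pik3r1, -0.11 for Insr and -0.22 for Akt2. They became -1.22 for Akt1, -2.20 for Igf1r, -0.82 for Irs2, -0.50 for Pik3cd and -0.56 for Sgk1. On stimulation of Raptor KO CD8+ cells Irs2 turned to 0.22. Of all genes, 1.70% had a positive and 1.19% a negative difference between the stimulation effects in Raptor KO and WT CD8+ cells.

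Levels of different genes were compared per kilobase of exon. In stimulated CD8+ cells Igf1r came to 0.658 ± 0.212 CPM per kb in Raptor KO, 3.33 ± 0.309 in Rictor KO and 1.68 ± 0.304 in WT, next to 1.80 ± 0.0758, 1.53 ± 0.225 and 1.43 ± 0.191 for Insr in the same order of genotypes. In WT the levels per kb ran in the order Pik3cd (22.0 ± 2.41), Akt1 (17.1 ± 0.698), Irs2 (6.88 ± 1.67), Akt2 (6.24 ± 0.815), Pik3r1 (4.79 ± 0.555), Igf1r (1.68), Insr (1.43) and Sgk1 (1.10 ± 0.561; SD, n = 3). Irs2 and Akt2, Igf1r and Insr, and Insr and Sgk1 were no further apart than the larger SD of the pair.

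The tested protein-coding genes whose log2 CPM followed Igf1r most closely over the 27 libraries were Dusp7 (Pearson r = 0.84), Man2b1 (0.82), Skiv2l (0.81), Pde4dip (0.80) and Cited2 (0.80). The closest to the other members were Ccm2 for Insr (0.95), Fmnl1 for Irs2 (0.88), Gimap3 for Pik3r1 (0.97), Grap2 for Pik3cd (0.96), Rpl41 for Akt1 (0.96), Mgme1 for Akt2 (0.71) and Itgb7 for Sgk1 (0.97). These are descriptions over libraries that share culture, subset and depth.

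Around the 8 genes, 53 further genes of the pathway in 6 lists were tested in every comparison. Stimulation lowered 27 and raised 9 of them in Raptor KO CD8+ cells, lowered 30 and raised 12 in WT CD8+ cells, lowered 32 and raised 7 in Raptor KO CD4+ cells, and lowered 32 and raised 10 in WT CD4+ cells. In this order the lowered genes were 50.9%, 56.6%, 60.4% and 60.4% of the 53, against 26.0%, 30.8%, 24.1% and 32.5% of all genes. The raised genes were 17.0%, 22.6%, 13.2% and 18.9%, against 29.5%, 32.0%, 27.9% and 32.4% of all genes. The median log2 fold change of the 53 was -0.66, -0.60, -0.70 and -0.78 in this order, against -0.03 to 0.04 over all genes. Of 12 FOXO target genes, 9 were lower in each of the 4 comparisons, where 26.0%, 30.8%, 24.1% and 32.5% of all genes were lower. The lists were not tested against each other. In WT CD8+ cells Klf2, which keeps naive T cells quiescent, averaged 1.53 CPM stimulated and 214 CPM resting (log2 -6.99), S1pr1, which lets T cells leave lymph nodes, 6.96 and 336 CPM (-5.64), and Il7r, the IL-7 receptor chain, 21.7 and 397 CPM (-4.24; edgeR adjusted p = 2.28e-08 or less). Pik3ip1, an inhibitor of PI3K, averaged 4.42 CPM stimulated and 135 CPM resting (-4.99, adjusted p = 5.99e-22). Hk2, the hexokinase that Akt places on mitochondria, averaged 167 CPM stimulated and 3.15 CPM resting (5.65, adjusted p = 6.38e-19), Icos 123 and 27.5 CPM (2.16, adjusted p = 2.57e-07), and Sod2, a FOXO target that rose, 41.4 and 12.8 CPM (1.71, adjusted p = 3.17e-09). All the folds named here had no overlap between libraries.

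Between Raptor KO and WT, 12 of the 53 differed in stimulated CD4+ cells, 9 higher and 3 lower, and 8 in stimulated CD8+ cells, 4 higher and 4 lower. These were 17.0% higher and 5.66% lower in CD4+ cells, against 8.82% and 8.56% of all genes, and 7.55% each way in CD8+ cells, against 6.30% and 5.42% of all genes. In CD4+ cells the higher share lay above the background and the lower share below it, a split that was not tested. Both CD8+ shares lay near the background. In CD4+ cells Inpp4b, a phosphatase of PI3K lipid products, averaged 248 CPM in Raptor KO and 134 CPM in WT (log2 0.88 ± 0.15, edgeR adjusted p = 3.82e-05). The level of its relative Inpp4a averaged 21.0 and 11.7 CPM (0.81 ± 0.22, adjusted p = 0.00669), and that of Pik3cg, the PI3K catalytic subunit used by chemokine receptors, averaged 37.8 and 19.3 CPM (0.99 ± 0.31, adjusted p = 0.0266). Hk2 fell to 78.3 CPM in Raptor KO, against 162 CPM in WT (-1.04 ± 0.18, adjusted p = 7.56e-05), and Igf2r, a scavenger of Igf2, to 53.7 CPM, against 89.7 CPM in WT (-0.73 ± 0.15, adjusted p = 0.000409). In CD8+ cells Foxo3 averaged 27.1 CPM in Raptor KO and 47.9 CPM in WT (-0.80 ± 0.17, adjusted p = 0.000696), Sod2 27.7 and 41.4 CPM (-0.59 ± 0.18, adjusted p = 0.0209), Inpp4b 154 and 112 CPM (0.47 ± 0.15, adjusted p = 0.0313) and Tsc1, which restrains mTORC1, 26.3 and 17.0 CPM (0.64 ± 0.21, adjusted p = 0.0369). The count of 12 fell to 7 and 6 without stimulated Raptor KO CD4+ library 1 or 2, and to 4 with Rn45s in the totals. The count of 8 came to 2, 5 and 4 without Raptor KO library 1, 2 or 3, to 3, 4 and 3 without WT library 1, 2 or 3, and to 3 with Rn45s in the totals.

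**Figure D5:**
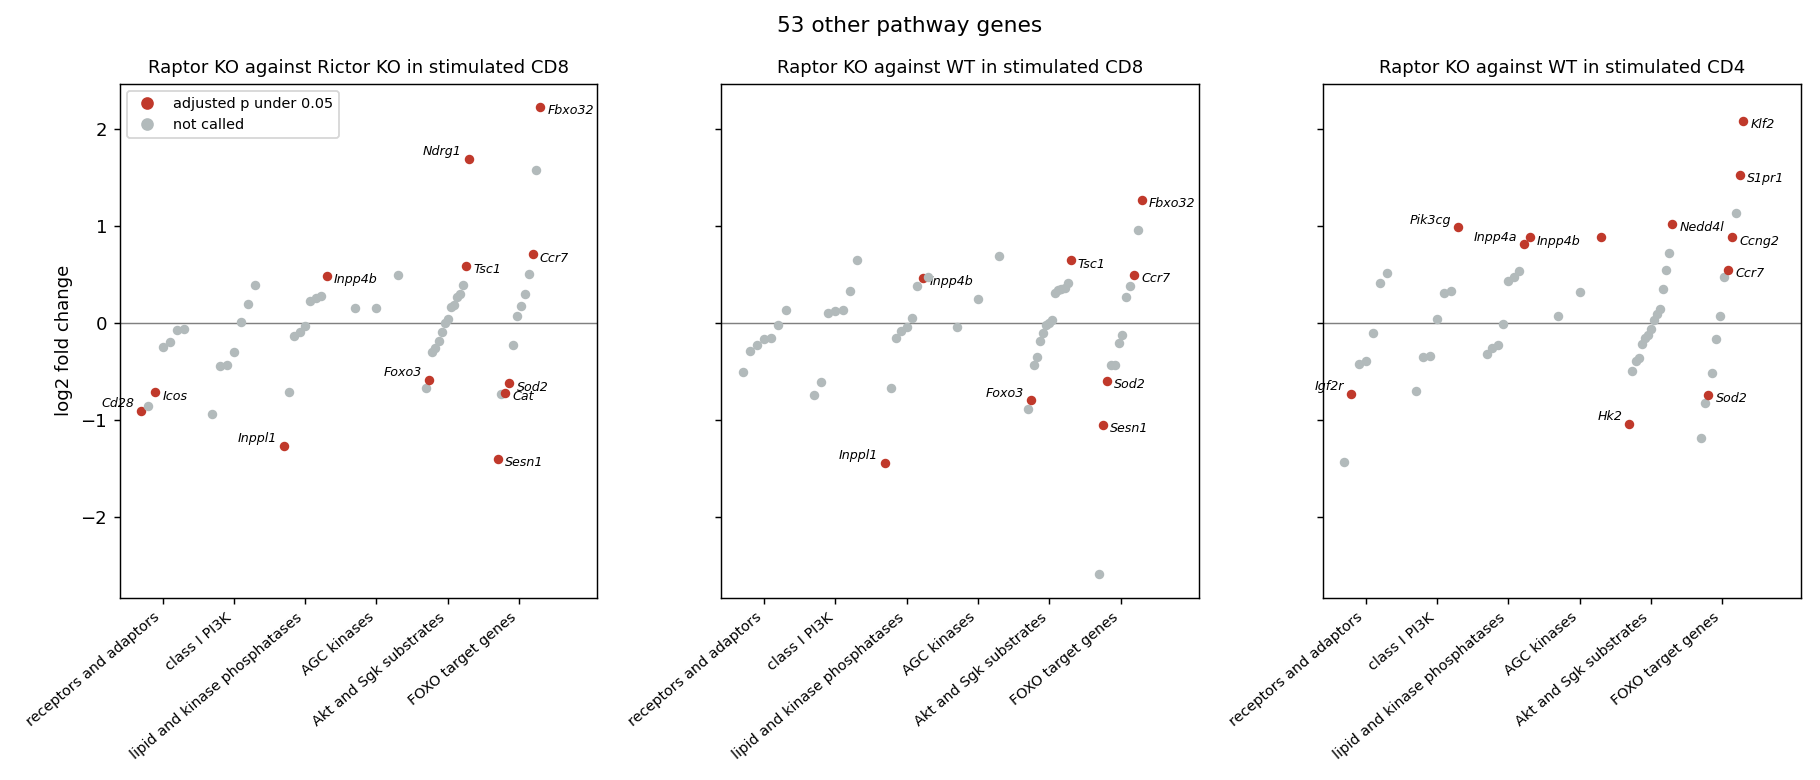
Log2 fold change (vertical axis) of the 53 other pathway genes by list (horizontal axis) for Raptor KO against Rictor KO and against WT in stimulated CD8+ cells and against WT in stimulated CD4+ cells. Filled red points passed an edgeR adjusted p of 0.05, 12, 8 and 12 genes in the 3 panels, and carry their name where they are reported here.

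At rest, none of the 53 passed the test between Raptor KO and WT in CD4+ cells and 3 did in CD8+ cells, 1 higher and 2 lower (1.89% and 3.77%, against 0.505% and 0.619% of all genes). By edgeR 5 of the 53 had an unadjusted p under 0.05 in resting CD4+ cells, and DESeq2 called 0. In resting CD8+ cells Il7r averaged 141 CPM in Raptor KO and 397 CPM in WT (log2 -1.48 ± 0.34, adjusted p = 0.0456), and Sesn1, a stress-induced inhibitor of mTORC1, 34.7 and 77.3 CPM (-1.13 ± 0.23, adjusted p = 0.00422). The count of 3 fell to 1 without any 1 of the 6 libraries and to 0 with Rn45s in the totals.

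In stimulated CD8+ cells, 12 of the 53 differed between Raptor KO and Rictor KO, 5 higher and 7 lower in Raptor KO (9.43% and 13.2%, against 8.30% and 7.00% of all genes). Ndrg1, a substrate of Sgk1, averaged 30.4 ± 8.57 CPM in Raptor KO, 9.07 ± 1.47 CPM in Rictor KO and 24.7 ± 10.3 CPM in WT (SD, n = 3 each). Its log2 difference was 1.69 ± 0.31 for Raptor KO against Rictor KO (adjusted p = 0.00014) and -1.36 ± 0.30 for Rictor KO against WT (adjusted p = 0.0449). Cd28, the costimulatory receptor, averaged 68.4 ± 26.9 CPM in Raptor KO, 130 ± 15.7 CPM in Rictor KO and 70.4 ± 2.56 CPM in WT, with log2 differences of -0.91 ± 0.19 for Raptor KO against Rictor KO (adjusted p = 0.00138) and 0.88 ± 0.19 for Rictor KO against WT (adjusted p = 0.0449). Ndrg1 and Cd28 were the 2 of 53 called between Rictor KO and WT, 1.89% each way, against 0.105% of all genes higher and 0.0572% lower. That count of 2 was 1 without WT library 3 and 0 without any 1 of the other 5 libraries. All 3 Rictor KO libraries carry StP219, so code and genotype cannot be fully told apart here either. Ccr7, a homing receptor kept by FOXO, averaged 356 CPM in Raptor KO and 218 CPM in Rictor KO (0.71 ± 0.16, adjusted p = 0.00141). Sesn1 averaged 5.98 and 15.5 CPM (-1.40 ± 0.35, adjusted p = 0.00269), Foxo3 27.1 and 41.0 CPM (-0.59 ± 0.17, adjusted p = 0.0104), and Icos 87.1 and 142 CPM (-0.72 ± 0.23, adjusted p = 0.0409). With Rn45s in the totals the count of 12 became 4.

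Between WT subsets, 5 of the 53 were lower and none higher in resting CD8+ than in resting CD4+ cells, and 6 were higher and 1 lower after stimulation. At rest 1.59% of all genes were higher and 1.73% lower in CD8+ cells, and after stimulation 3.08% and 2.11%. Tbc1d4, an Akt substrate that controls glucose transporter traffic, averaged 8.67 CPM in CD8+ and 43.0 CPM in CD4+ cells at rest (-2.36 ± 0.30, adjusted p = 9.01e-08) and 3.21 and 13.8 CPM after stimulation (-2.08 ± 0.34, adjusted p = 1.21e-05). Cd28 averaged 79.1 CPM in CD8+ and 187 CPM in CD4+ resting cells (-1.24 ± 0.20, adjusted p = 0.00011). The resting count of 5 fell to 3 without WT CD8+ library 1. After stimulation Ccr7 averaged 253 CPM in CD8+ and 114 CPM in CD4+ cells (1.14 ± 0.16, adjusted p = 2.72e-06), and Pik3r5, a regulatory partner of Pik3cg, 38.3 and 14.8 CPM (1.33 ± 0.29, adjusted p = 0.0053). Of the rest of the fixed list, Irs1, Grb10, Gab2, Pik3r3, Pik3r6, Sgk2 and Gadd45a held at most 13 counts in any library and did not pass the filter, and Irs4 had no value.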

How the data were processed

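RNA of 27 libraries in 9 groups of 3 was sequenced; the authors deposited 1 table of whole-number counts per gene, not normalized. STAR 2.6.0a and GRCm38 are named in the submitters' processing notes; how genes were counted, and whether by strand, is not stated in the labels. Of 26802 gene IDs, 26765 matched the GENCODE annotation and 37 did not. Rn45s, a ribosomal RNA precursor, was left out of library totals and tests. Genes were kept by edgeR's filterByExpr (minimum count 10, minimum total 15), scaled by TMM and tested with edgeR 4.0.16 (quasi-likelihood, robust) in R 4.3.3, with all 27 libraries in 1 fit and Benjamini-Hochberg adjustment at 0.05. The fit was also run on counts simulated from its own dispersions. Such counts lack the composition and library code differences of the real libraries, so they do not show how the fit handles those. The median tested protein-coding gene had 32 counts per library, and the biological coefficient of variation was 0.187. Replicates of a group differed by more than sampling noise (chi-square per degree of freedom 2.44 to 41.3). The labels do not say that libraries of a group came from separate mice, so p-values reflect the spread among these libraries, which may be technical.

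The 8 genes, the pathway lists and the marker lists were chosen with earlier results of these data known. All 8 genes are given in every comparison, with no test in the 5 of 14 comparisons that include stimulated Raptor KO or Rictor KO CD8+ cells. Of other pathway genes, the text names from those called with a mean of at least 10 CPM in either group, up to 6 per direction by size; a few genes of the lists are counted but not reported here by name. Alternatives were median-ratio size factors, no and a stricter filter, Rn45s kept in totals without TMM scaling, the compared groups alone, library number or code as a factor, DESeq2 1.42.0 and each library left out. Because Rn45s was kept and TMM scaling dropped at the same time, the part of each was not separated.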

Additional observations from a re-analysis of the deposited data

Results flagged for a closer look

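In CD4+ cells, 5 of the pathway genes reported here responded to stimulation differently in Raptor KO and WT by edgeR's interaction test, and 1 did so in CD8+ cells. Of the 53 other pathway genes, 7.55% had a positive and 1.89% a negative difference in CD4+ cells, against 3.57% and 2.25% of all genes. In CD8+ cells 0% and 1.89% did, against 1.70% and 1.19% of all genes. With 1 library left out, the count among the 53 ran from 1 to 7 in CD4+ cells. Each value below is the stimulation effect in Raptor KO minus that in WT on the log2 scale, with its SE.

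Pik3r1 averaged 77.9 CPM stimulated and 131 CPM resting in Raptor KO CD4+ cells, and 44.0 CPM stimulated and 140.2 CPM resting in WT CD4+ cells, a difference of 0.92 ± 0.20 (adjusted p = 0.00324). Inpp4b averaged 248 and 609 CPM in Raptor KO and 134 and 587 CPM in WT, stimulated before resting, a difference of 0.83 ± 0.21 (adjusted p = 0.0108). For Inpp4a the means were 21.0 and 61.7 CPM in Raptor KO and 11.7 and 68.9 CPM in WT (0.98 ± 0.27, adjusted p = 0.022). Klf2 averaged 8.19 and 220.0 CPM in Raptor KO and 2.22 and 203 CPM in WT (1.96 ± 0.59, adjusted p = 0.0377). At 2.22 CPM the stimulated WT level of Klf2 rests on few counts at this depth. Igf2r was the one with a negative difference, at 53.7 and 74.5 CPM in Raptor KO and 89.7 and 67.3 CPM in WT (-0.87 ± 0.21, adjusted p = 0.00811).

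In CD8+ cells Sod2, a mitochondrial superoxide dismutase, averaged 27.7 CPM stimulated and 20.0 CPM resting in Raptor KO, and 41.4 CPM stimulated and 12.8 CPM resting in WT (-1.24 ± 0.31, adjusted p = 0.0144). With Rn45s kept in the library totals none of the 53 other pathway genes passed in either interaction.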

How the results depend on the processing

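For the 8 genes, 533 tested values kept direction and call under settings other than leaving out a library, 29 reversed, 12 lost and 2 gained a call; with 1 library left out 439 kept both, 34 reversed, 5 lost and 2 gained a call. Every reversed value belonged to a difference not called, except that of Igf1r on stimulation of WT CD8+ cells with Rn45s in the totals (0.19). The cause of these shifts was not tested. Depth limits Sgk1 in stimulated cells most.

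Keeping Rn45s, without TMM scaling, moved the median of all genes by 0.30, 0.77, -0.12 and 0.28 for stimulation in Raptor KO CD8+, WT CD8+, Raptor KO CD4+ and WT CD4+ cells. The median moved by -0.50 and -0.52 for Raptor KO against WT in stimulated CD4+ and CD8+ cells, and by -0.10 in resting CD4+ cells. It moved by -0.45 for Raptor KO against Rictor KO and by -0.42 for CD8+ against CD4+ cells at rest. Stimulation of WT CD8+ cells then gave 4527 genes higher and 1107 lower, and Raptor KO against WT 67 higher and 617 lower in stimulated CD4+ cells, 55 and 404 in stimulated CD8+ cells, and against Rictor KO 115 and 401. Counts of genes became 3261 (5453 before) for stimulation of Raptor KO CD4+ cells, 684 (1823) and 459 (1230) for Raptor KO against WT in stimulated CD4+ and CD8+ cells, 23 (118) in resting CD8+ cells, 5 (17) for Rictor KO against WT, 516 (1606) for Raptor KO against Rictor KO, 186 (349) and 181 (544) for CD8+ against CD4+ cells at rest and stimulated, and 24 (611) and 38 (303) for the interactions in CD4+ and CD8+ cells. The pathway counts became 4, 3, 0, 0, 4, 3, 4, 0 and 0 for the last 9 of these. Raptor KO against WT in stimulated CD4+ cells became -0.36 for Insr, -0.48 for Irs2, -0.39 for Pik3cd and -0.45 for Akt2. Akt1 became -0.016 in resting CD4+ cells, and Pik3cd -0.033 in resting CD8+ cells. CD8+ against CD4+ cells became -0.19 for Pik3cd and -0.41 for Akt1 at rest and 0.022 for Akt1 when stimulated, and the CD4+ interaction -0.35 for Irs2, -0.19 for Pik3cd and -0.31 for Akt2.

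With median-ratio size factors, no filter and DESeq2 in turn, Raptor KO against WT in stimulated CD4+ cells was -0.048, -0.082 and -0.065 for Irs2 and -0.041, -0.077 and -0.040 for Akt2, the CD4+ interaction of Irs2 was -0.033, -0.067 and -0.055, and CD8+ against CD4+ cells at rest was 0.000656, 0.0145 and 0.000383 for Akt2. Size factors left 4 pathway genes for Raptor KO against WT in stimulated CD8+ cells. No filter gave 29 genes in resting CD4+ cells, 61 for Rictor KO against WT, 3 pathway genes and -0.036 for Akt2 in the CD4+ interaction. DESeq2 gave 2 pathway genes in the CD8+ interaction. The compared groups alone gave pathway counts of 1 in resting CD4+ cells, 5 for Raptor KO against WT in stimulated CD8+ cells, 1 for Rictor KO against WT with 37 genes, and 8 and 4 for CD8+ against CD4+ cells at rest and stimulated, with 0.00124 for Irs2 and 0.000479 for Pik3cd in resting CD4+ cells and 0.00935 for Akt2 between the resting subsets. Library code as a factor gave 34 genes and 1 pathway gene in resting CD4+ cells, 197 genes in resting CD8+ cells, and pathway counts of 1 for Rictor KO against WT, 8 between the resting subsets and 3 in the CD8+ interaction. A replicate block on library number, whose same-numbered correlations ran from -0.178 to 0.367 and did not pass 0.1 throughout any comparison, gave 31 genes in resting CD4+ cells, 52 genes and 1 pathway gene for Rictor KO against WT, and pathway counts of 8 between the resting subsets and 2 in the CD8+ interaction.

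With 1 library left out, CD8+ against CD4+ cells at rest ran from -0.028 to 0.16 for Akt1 and -0.075 to 0.078 for Akt2, with 3 to 5 pathway genes, and stimulated from -0.55 to 0.096 for Sgk1. The CD4+ interaction ran from -0.083 to 0.24 for Akt2, -0.36 to 0.34 for Irs2 and -0.083 to 0.31 for Pik3cd, with 375 to 664 genes and 1 to 7 pathway genes, and the CD8+ interaction held 1 to 3 pathway genes. Resting CD4+ cells ran from -0.010 to 0.26 for Akt1, -0.18 to 0.044 for Akt2, -0.094 to 0.064 for Irs2, -0.18 to 0.20 for Pik3cd and -0.019 to 0.22 for Sgk1. Resting CD8+ cells ran from -0.085 to 0.24 for Pik3cd, with 58 to 97 genes and 1 pathway gene each time. Stimulated CD4+ cells ran from -0.13 to 0.19 for Akt2 and -0.38 to 0.32 for Irs2, with 1138 to 1714 genes and 6 to 11 pathway genes. Stimulated CD8+ cells held 753 to 1100 genes and 2 to 5 pathway genes for Raptor KO against WT, 1 to 27 and 0 to 1 for Rictor KO against WT, and 997 to 1443 genes for Raptor KO against Rictor KO. Igf1r there ran from -2.51 to -2.14 for Raptor KO against Rictor KO, -1.55 to -1.15 for Raptor KO against WT and 0.86 to 1.14 for Rictor KO against WT.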
